A study of Mus musculus with 2 samples.

Results

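The 100 most abundant predicted genes of the mouse testis were followed from spermatogonia to the last spermatids. Their symbols consist of Gm and a number, a placeholder given to a mouse gene model that has no other name yet. The genes were selected on the readout itself, as the 100 such symbols with most UMIs summed over all cells of both libraries. A UMI is a molecular identifier that marks 1 captured RNA molecule. The choice was made among 551 Gm symbols that could be tied to exactly 1 row of the count matrix, which holds 26758 rows. The symbol list of the series holds 5902 Gm symbols in all, and 5476 symbols of any kind had 1 possible row. The abundance of the 100 genes is therefore a description and not a finding, and the same holds for their summed share. The tie of symbols to rows rests on an assumption about rare rows, without which 64 of the 100 genes would still have been chosen. The least abundant of them were Gm47368 with 6167 UMIs, Gm2449 with 6086 UMIs and Gm32916 with 5831 UMIs. The next symbols in the ranking, which were left out, were Gm43352 with 5801 UMIs, Gm10044 with 5732 UMIs and Gm42654 with 5644 UMIs.

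The cells came from the testes of adult C57BL/6 mice (C57BL/6N in the study's methods), either wild-type (WT) or with all exons of Tex13a deleted by CRISPR-Cas9 (KO). Each genotype was 1 library, made from the pooled testes of 3 mice after digestion with collagenase I. The authors assigned the cells to 13 clusters, which are spermatogonia (Sg), spermatocytes (Sc1 and Sc2), a mixed cluster of spermatocytes and early spermatids (Sd1) and spermatids of increasing age (Sd2 to Sd10). With 1 library per genotype WT and KO cannot be compared by a test, since what the genotype does and what sets these 2 libraries apart for other reasons cannot be told apart. All intervals below are 95% intervals that cover counting error only.

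The testis transcribes an unusually large part of the genome, and many long non-coding RNAs, antisense transcripts and copies of protein-coding genes are seen mainly in male germ cells. Spermatocytes pass through meiosis with the sex chromosomes transcriptionally silenced. Round spermatids then make a burst of new RNA that is stored for later use, and transcription ends as protamines replace histones in elongating spermatids. From that point on, the RNA of a spermatid can be kept or lost but not renewed. Tex13a is an X-linked, spermatid-specific gene that the study examined for a role in mRNA turnover.

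There were 5170 WT cells with 45568532 UMIs and 7238 KO cells with 67734689 UMIs, with 0 cell barcodes in common. Tex13a, the targeted gene, could be any of 7 rows of the matrix and was given no level. Of these, 1 held 2295 UMIs in WT and 0 in KO. Levels are sums over the cells of a cluster in 1 library, scaled to 1000000 UMIs of that cluster and library (CPM). The smallest sum was 749010 UMIs, in Sc1 of KO, and the largest 12722633 UMIs, in Sc2 of KO. CPM were not divided by transcript length, so levels are compared for the same gene between clusters and not between genes. The spermatid markers Prm1 and Tnp1 were highest in Sd8 of both libraries, but were also read in Sg, where Prm1 stood at 13.5% of its highest WT level and Tnp1 at 10.6%. Of the lists of markers of other testis cells, the 1 Leydig cell gene of 5 with 1 possible row reached 10.2 CPM, the 1 myoid gene of 3 reached 14.0 CPM, and none of 3 endothelial genes could be read. The 2 Sertoli cell genes of 7 summed to at most 594 CPM, in Sc1 of KO and nearly all from Ctsl, and the 3 globin genes of 4 to at most 784 CPM, in Sd8 of KO. The 2 macrophage genes of 5 summed to at most 117 CPM in WT and 49.4 CPM in KO, both in Sd10, where Cd74 stood at 59.9 CPM in WT. Their part in the results below was not tested. Of the spermatogonial markers Uchl1 was highest in Sg, while Stra8 and Dazl, like the meiotic gene Sycp3, were highest in Sc1 of both libraries.

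The promoters of 57 of the 100 genes, 69 in all, were present in the RefSeq promoter table for GRCm38.p6, each running from 250 bases before to 50 bases after an annotated start. Those below are shown because they belong to genes whose levels are described next, at stages from Sd1 to Sd10. Capitals mark matches on either strand to 4 short motifs, TGACG (a part of the cyclic AMP response element TGACGTCA, the site of CREM, which drives transcription in round spermatids), TATAAA (the TATA box), CAGTTG (a core of sites for MYB factors, of which A-MYB acts in spermatocytes) and GTTGCC (a part of the site of RFX factors, of which RFX2 acts in spermatids). The printed Gm2762 promoter holds none of them. Gm2762, highest in Sd1, is shown at chr13:53393439-53393738 (plus strand). Gm20878, highest in Sd3, is shown at chr4:41941384-41941683 (plus strand). Gm4275, highest in Sd4, is shown at chr7:130523114-130523413 (plus strand). Gm28269, highest in Sd5, is shown at chrX:21745062-21745361 (minus strand). Gm15756, highest in Sd9, is shown at chr6:90599891-90600190 (minus strand), and Gm5617, highest in Sd10, at chr9:48495093-48495392 (plus strand).
Gm2762: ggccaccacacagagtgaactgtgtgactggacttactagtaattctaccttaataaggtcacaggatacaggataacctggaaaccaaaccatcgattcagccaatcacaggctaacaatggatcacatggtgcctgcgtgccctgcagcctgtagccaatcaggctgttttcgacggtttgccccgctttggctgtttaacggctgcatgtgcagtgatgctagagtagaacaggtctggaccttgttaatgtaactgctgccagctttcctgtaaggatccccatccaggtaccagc
Gm20878: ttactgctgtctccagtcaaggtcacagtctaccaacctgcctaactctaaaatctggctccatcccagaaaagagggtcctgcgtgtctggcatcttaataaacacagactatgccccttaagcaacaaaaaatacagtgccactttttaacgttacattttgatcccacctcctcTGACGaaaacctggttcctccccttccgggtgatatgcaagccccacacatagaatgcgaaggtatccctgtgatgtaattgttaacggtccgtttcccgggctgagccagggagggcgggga
Gm4275: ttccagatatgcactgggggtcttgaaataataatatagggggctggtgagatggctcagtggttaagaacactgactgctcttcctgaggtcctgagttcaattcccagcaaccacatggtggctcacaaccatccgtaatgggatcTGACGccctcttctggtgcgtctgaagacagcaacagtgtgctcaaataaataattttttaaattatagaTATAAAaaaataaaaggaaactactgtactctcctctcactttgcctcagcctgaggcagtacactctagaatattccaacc
Gm28269: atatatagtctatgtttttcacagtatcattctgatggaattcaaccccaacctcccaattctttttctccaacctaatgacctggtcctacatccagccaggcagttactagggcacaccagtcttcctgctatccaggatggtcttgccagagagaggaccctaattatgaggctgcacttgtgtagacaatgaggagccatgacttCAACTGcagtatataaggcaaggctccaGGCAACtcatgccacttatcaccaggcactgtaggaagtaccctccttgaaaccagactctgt
Gm15756: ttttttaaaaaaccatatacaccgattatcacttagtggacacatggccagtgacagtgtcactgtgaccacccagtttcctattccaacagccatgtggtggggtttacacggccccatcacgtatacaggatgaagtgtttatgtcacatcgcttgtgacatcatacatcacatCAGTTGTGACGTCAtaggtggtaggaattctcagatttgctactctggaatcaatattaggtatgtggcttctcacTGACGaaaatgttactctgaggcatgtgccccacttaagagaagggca
Gm5617: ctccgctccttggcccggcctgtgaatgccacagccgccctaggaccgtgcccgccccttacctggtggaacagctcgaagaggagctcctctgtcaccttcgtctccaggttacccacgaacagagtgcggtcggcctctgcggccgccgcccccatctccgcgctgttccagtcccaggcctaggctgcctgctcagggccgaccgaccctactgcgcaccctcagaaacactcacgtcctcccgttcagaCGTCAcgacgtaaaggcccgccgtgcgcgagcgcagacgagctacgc

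The full element TGACGTCA was found in 1 of the 69 promoters, that of Gm15756, against 1.79% of all 32851 promoters of the table. TGACG was found in 26.1% of the promoters of the Gm genes and in 20.8% of all promoters, TATAAA in 20.3% and 13.6%, CAGTTG in 30.4% and 13.7%, and GTTGCC in 17.4% and 12.5%. TGACG lies within TGACGTCA, and CAGTTG and GTTGCC can overlap by 4 letters, so these counts are not independent. Split by stage, CAGTTG was found in 4 of the 7 promoters of genes highest in Sg to Sc2, in 9 of the 39 promoters of genes highest in Sd1 to Sd4 and in 8 of the 23 promoters of genes highest in Sd5 to Sd10. GTTGCC was found in 1, 4 and 7 of the same promoters. A match describes letters in a window and is not a bound site.

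The 100 genes held 1027433 UMIs in WT and 1405207 UMIs in KO, which is 2.25% and 2.07% of all UMIs. They made up 84.1% of the UMIs of the 551 Gm symbols. The distribution among them was steep. Gm5617 alone had 356756 UMIs, Gm42418 had 263459 and Gm9999 had 252819, and these 3 held 35.9% of the UMIs of the 100 genes. The first 10, which also include Gm11837, Gm6760, Gm10638, Gm2762, Gm9059, Gm36423 and Gm16541, held 51.3%.

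The summed share of the 100 genes was lowest in the earliest cells and highest in the latest spermatids of both libraries. In WT it was 1.16% (1.14 to 1.17) of the UMIs in Sg and 1.15% (1.13 to 1.17) in Sc1, then 1.58% in Sc2, 1.88% in Sd1, 2.49% in Sd4 and 2.60% in Sd7, and reached 3.16% (3.14 to 3.18) in Sd9 and 4.14% (4.11 to 4.18) in Sd10. In KO it was 1.09% (1.08 to 1.11) in Sg and 3.97% in Sd10. Without Gm5617, Gm42418 and Gm9999 the course was different, with 0.508% in Sg, a highest share of 1.79% (1.78 to 1.81) in Sd4 and 1.20% (1.18 to 1.22) in Sd10 of WT. The other 97 genes were thus together highest in round spermatids, and the climb towards Sd10 lay in the 3 most abundant.

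**Figure D1:**
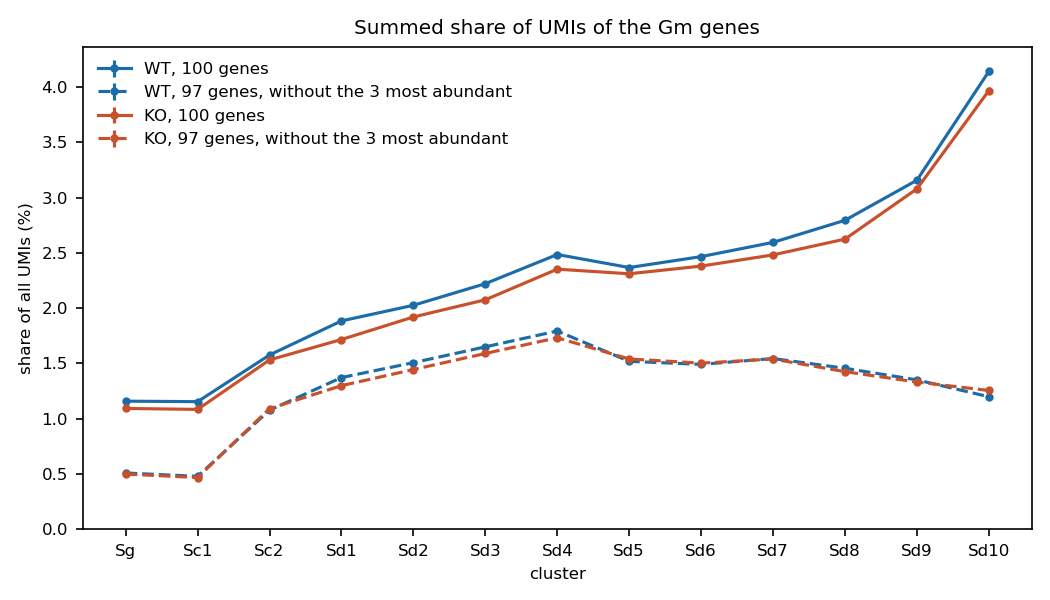
Summed share of all UMIs (%, y axis) of the 100 Gm genes (solid lines) and of the 97 left without the 3 most abundant (dashed lines) in each of the 13 clusters (x axis), for WT (blue) and KO (orange). Bars are exact binomial 95% intervals for counting error. The solid lines climb to 4.14% in WT and 3.97% in KO in Sd10, whereas the dashed lines are highest in Sd4.

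The highest levels of the 100 genes were spread over the whole course. In WT 13 were highest in Sg to Sc2, 51 in Sd1 to Sd4 and 36 in Sd5 to Sd10. Among 2620 other genes with at least as many UMIs as the last of the 100, the shares were 30.7%, 41.3% and 28.0%. The cluster with most of the 100 genes was Sd1 with 21, followed by Sd10 with 13, Sd4 with 12, and Sc2 and Sd3 with 11 each. In WT none was highest in Sc1 and 2 were highest in Sg. Of the 2620 other genes, 19.9% were highest in Sd1, 11.1% in Sd10, 8.24% in Sd4, 11.5% in Sc2 and 6.79% in Sd3. In Sc1 it was 9.47% of them and in Sg 9.77%. A choice by summed UMIs can favour genes highest in clusters with many UMIs, and both sets were chosen so. For 59 genes the interval of the highest WT level lay above that of every other cluster, as it did for 56.2% of the 2620 other genes. The median ratio of the highest to the median cluster was 5.57 (quartiles 3.197 and 10.3), compared with 4.22 (2.49 and 8.96) for the 2620 other genes. The smallest such ratio was 1.24, for Gm10138, and the largest 62.1, for Gm20268.

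The highest cluster was the same in WT and KO for 91 of the 100 genes, against 84.4% of the 2620 other genes. It differed by 1 cluster for 4 genes and by more for 5 genes. The largest step was that of Gm42418, which was highest in Sd10 of WT and in Sc1 of KO. Its level was high in both clusters of both libraries. Sc1 stood at 88.3% of its highest level in WT, and Sd10 at 93.7% of its highest in KO. Gm19395 was highest in Sd4 of WT and in Sd10 of KO.

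**Figure D2:**
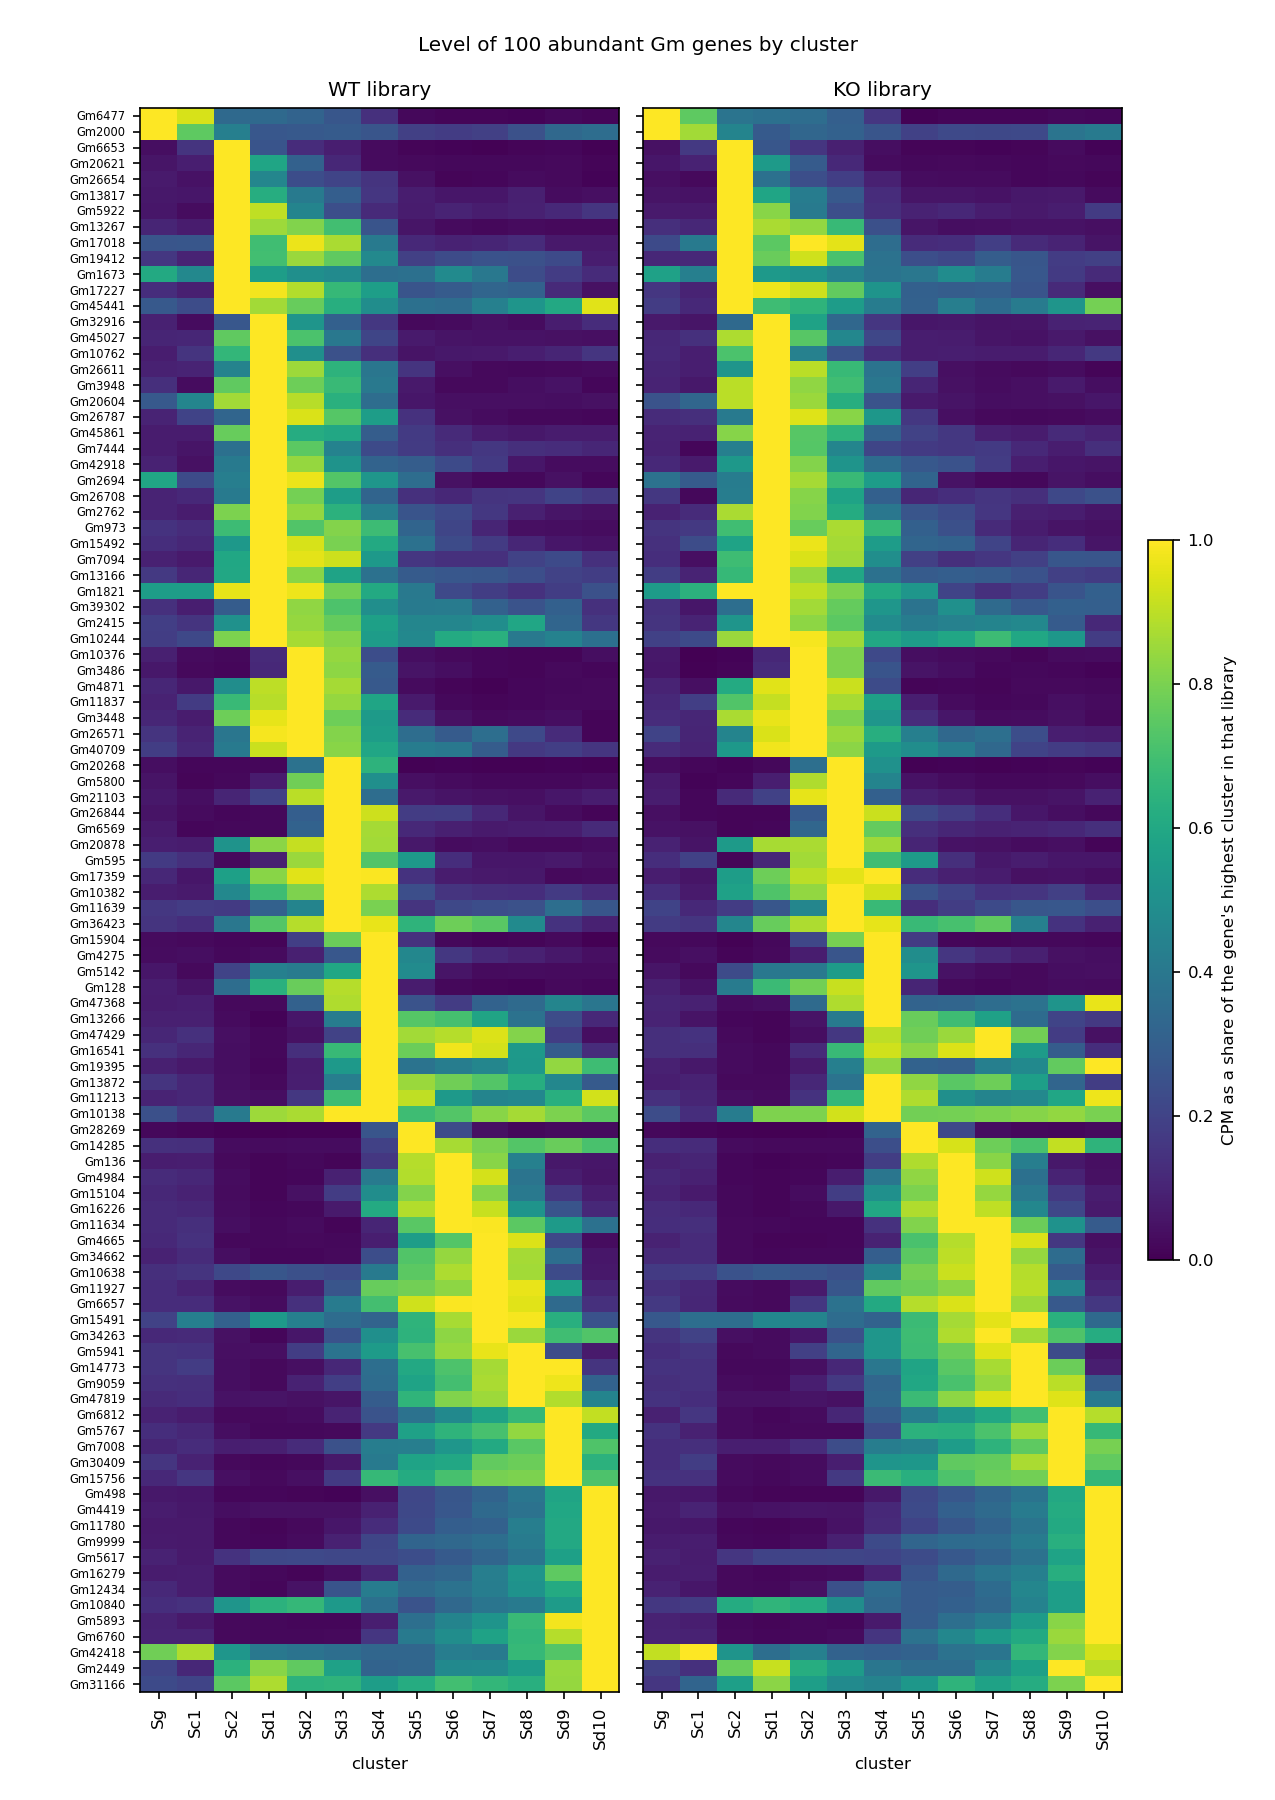
Level of each of the 100 Gm genes (rows, ordered by the highest WT cluster) in the 13 clusters (columns) of the WT library (left) and the KO library (right). Colour gives CPM as a share of the gene's highest cluster in that library, from 0 to 1, and 91 of the 100 rows have their highest cluster in the same place in both panels.

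Both genes highest in Sg were near-identical copies of genes that all cells use. Gm6477, on chromosome 10 at chr10:39198538-39199301 (GRCm38), is a processed pseudogene of Npm1, which encodes the nucleolar protein nucleophosmin. It stood at 381 CPM (352 to 412) in Sg of WT and 362 CPM (331 to 394) in Sg of KO, and at 8.76 CPM or less from Sd5 onwards in both. Gm2000, a copy of Rpl35 that encodes a protein of the large ribosomal subunit, was the other gene highest in Sg, with 354 CPM in WT and 255 CPM in KO. Of the genes whose highest cluster was Sc2, Gm20621 had the highest CPM there, with 636 CPM in WT and 611 CPM in KO. It was at 53.9 CPM in Sc1 of WT and 18.5 CPM in Sd4 of WT. Gm20621 is not in the GENCODE vM21 annotation, so nothing is said of its type. Gm6653 was next to it with 471 CPM in Sc2 of WT and 2.53 CPM in Sd7.

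Gm2762 and Gm11837 were highest in Sd1 and Sd2. Gm2762, a lincRNA on chromosome 13 (chr13:53393657-53455630), was at 610 CPM in Sc2 and 758 CPM (735 to 782) in Sd1 of WT, and its level was lower in each later WT cluster, down to 33.5 CPM (24.2 to 45.3) in Sd10. Gm11837, annotated as antisense to Necab1 on chromosome 4 (chr4:14929908-14953030), reached 2070 CPM in Sd2 of WT and 2017 CPM in Sd2 of KO. In WT it then stood at 1216 CPM in Sd4 and 147 CPM in Sd5.

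Several genes were concentrated in a few neighbouring clusters. Gm20268, a lincRNA on chromosome 1 (chr1:101155809-101175202), was at 332 CPM in Sd3 of WT and 1.83 CPM in Sd5. Its UMIs were found in 85.3% (81.9 to 88.3) of the WT cells of Sd3, where the median cell had 7179 UMIs, and in 1.73% (0.564 to 3.99) of those of Sd5, where the median cell had 7633 UMIs. Gm5800, which is annotated as protein coding, was at 503 CPM in Sd3 of WT and 21.2 CPM in Sd5. Gm4275, a transcribed unitary pseudogene on chromosome 7 (chr7:130523470-130529501), was at 330 CPM in Sd3, 1219 CPM in Sd4 and 566 CPM in Sd5 of WT, and its KO levels of 356, 1349 and 659 CPM followed the same order. Gm28269, an X-linked protein-coding gene at chrX:21743440-21745097, was at 159 CPM in Sd4, 602 CPM (573 to 632) in Sd5 and 28.0 CPM in Sd7 of WT, with 616 CPM (589 to 644) in Sd5 of KO. The promoters of Gm4275 and Gm28269 are printed above.

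The late group held the most abundant of all. Gm5617, a single-exon gene annotated as protein coding at chr9:48495442-48495972, was read in every cluster and stood at 889 CPM in Sc1 of WT, 2627 CPM in Sd1, 4695 CPM in Sd8 and 12078 CPM (11886 to 12272) in Sd10. Its KO level in Sd10 was 12106 CPM (11944 to 12270). Gm9999, protein coding on chromosome 7 (chr7:46983580-46987803), was at 211 CPM in Sd1 of WT, 2448 CPM in Sd4, 7014 CPM in Sd9 and 11630 CPM (11442 to 11821) in Sd10. In KO it was at 10955 CPM (10801 to 11110) in Sd10. Gm6760, an X-linked protein-coding gene, was at 1872 CPM in Sd10 of WT and 1948 CPM in Sd10 of KO, and at 37.6 CPM in Sd2 of WT. Other late genes were highest before Sd10. Gm15756, annotated as antisense and the 1 gene with a full TGACGTCA in its promoter, was at 551 CPM in Sd9 of WT and 529 CPM in Sd9 of KO, and at 14.8 CPM in Sd1 of WT. Gm10638 was at 1059 CPM in Sd7, 242 CPM in Sd9 and 67.1 CPM in Sd10 of WT. Gm9059 was at 1125 CPM in Sd8 and 353 CPM in Sd10 of WT.

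**Figure D3:**
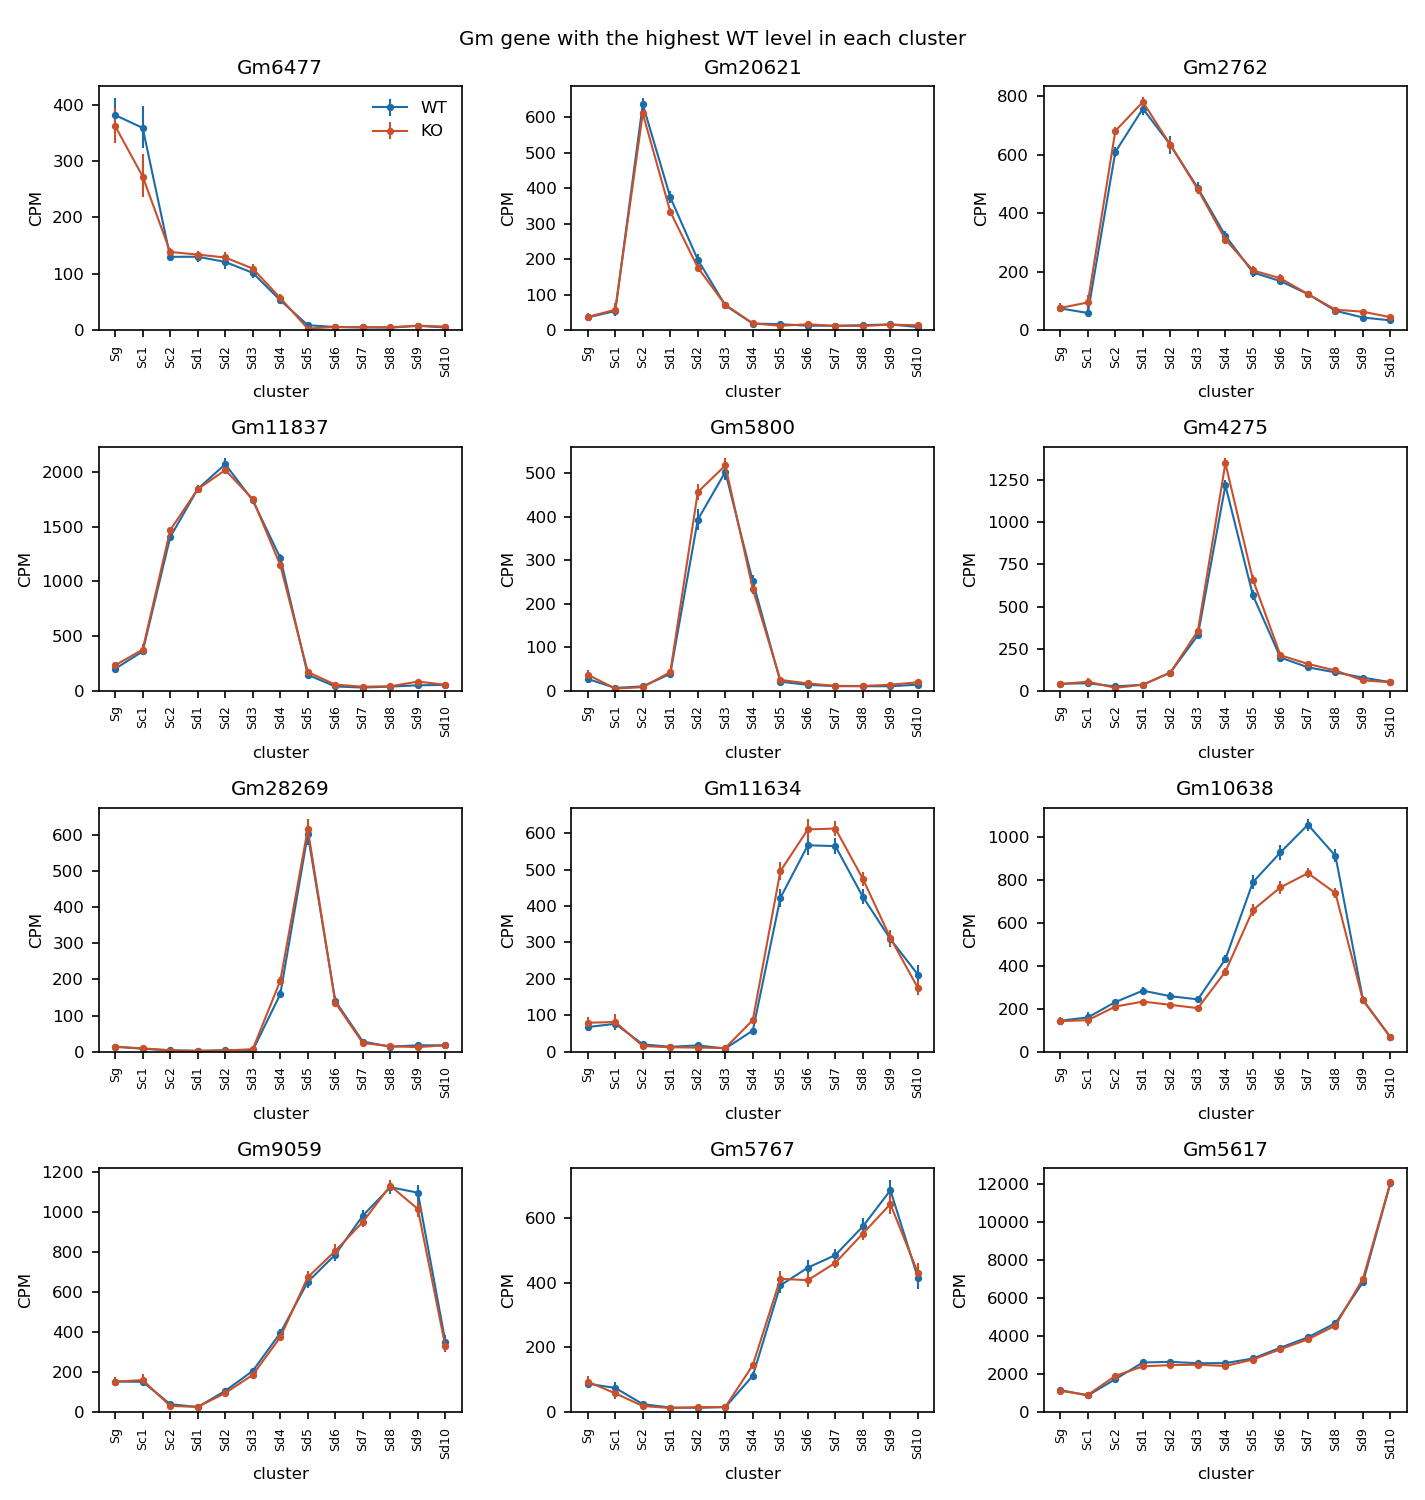
Level (CPM, y axis from 0) in the 13 clusters (x axis) of the Gm gene with the highest WT level among those highest in each cluster, for WT (blue) and KO (orange), with exact Poisson 95% intervals for counting error. No Gm gene was highest in Sc1, so 12 genes are shown. The highest cluster is the same in both libraries in every panel but that of Gm11634, and Gm10638 was at 1059 CPM in WT and 833 CPM in KO in Sd7.

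Levels of late genes in the early clusters are given with those of some spermatid markers, which differed among themselves. Over the 36 genes highest in Sd5 to Sd10 of WT, the median level in Sg was 11.7% of the gene's highest and that in Sc1 was 11.1%, and that in Sd1 2.36%. Prm1 stood at 13.5% of its highest in Sg, 14.1% in Sc1 and 2.48% in Sd1 of WT, and Tnp1 at 10.6%, 12.8% and 1.604%. Prm2 was lower, at 7.06%, 6.84% and 1.65%. Of further spermatid markers, Prm3 was at 820 CPM in Sg and 6280 CPM in Sd9, its highest WT cluster. Hemgn was at 20.7 CPM in Sg and 856 CPM in Sd5, its highest WT cluster. The share of RNA from other cells in these early levels was not tested. In the 13 genes highest in Sg to Sc2, the median level left in Sd10 was 4.51% of the highest.

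The genes were mostly not coding. They were chosen by a placeholder symbol, and the other genes of at least the same abundance hold no Gm symbol. The sets therefore differ in naming by construction, and their types are a description. Types were not counted for the less abundant Gm symbols. GENCODE vM21 held 99 of the 100, of which 36 were annotated as protein coding, 53 as a long non-coding type (1 of them, Gm6653, only as awaiting experimental proof) and 10 as a pseudogene, beside 93.4%, 5.65% and 0.852% of 2582 annotated other genes of at least the same abundance. The largest non-coding types were antisense with 27 genes and lincRNA with 18. By type, 20 of the 36 coding genes, 27 of the 53 non-coding genes and 4 of the 10 pseudogenes were highest in Sd1 to Sd4, and 13, 18 and 5 in Sd5 to Sd10. Among the other genes, 26.9% of the 2412 coding ones and 40.4% of the 146 non-coding ones were highest in Sd5 to Sd10. For the Gm genes these shares were 36.1% of the coding and 34.0% of the non-coding ones. The longest transcript of 19 of the 99 genes had a single exon, a count that was not made for the other genes. AGGUAA, cited by the study as a consensus that Tex13a can bind in single-stranded RNA, was searched in the transcript sequence, written as AGGTAA. It was in 17.2% of the longest transcripts of the Gm genes, of median length 811 bases, and in 33.5% of those of the other genes, of median length 2337 bases. Per kilobase the matches were 0.184 and 0.180.

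The X chromosome carried 9 of the 99 genes (9.09%), beside 1.36% of the other genes. They were Gm6760, Gm9059, Gm5941, Gm14773, Gm4984, Gm595, Gm15104, Gm6812 and Gm28269. Of these 9, 8 were highest in Sd5 to Sd10 of WT and Gm595 was highest in Sd3, while none was highest in Sg to Sc2. The same late clusters were highest for 29 of 35 other X-linked genes of at least the same abundance, and for 28 of the 90 Gm genes on other chromosomes. Gm6760, for example, was at 46.3 CPM in Sc2 of WT, and Gm28269 at 3.94 CPM.

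Many of the genes lie across another gene, as do many other genes of at least the same abundance. Of the 99, 53 overlapped a gene on the opposite strand, 16 a gene on the same strand and 39 no gene. Of the 2582 annotated other genes, 1163 overlapped a gene on the opposite strand and 483 a gene on the same strand. Overlap was scored on whole gene spans, introns included. The sources used here do not state whether reads were counted by strand. Where exons overlap, UMIs of a Gm gene and of its partner may therefore not be told apart. For 30 genes a neighbour within 5 kb had 1 possible row, which gave 36 pairs. The Pearson correlation of log2 CPM over the 13 WT clusters was below 0 in 20 of the 36 pairs, and at least 0.9 in 2. These correlations are descriptions over 13 points of the same library. The most alike pairs were Gm11213 and Tex48 with r = 0.96, Gm10840 and Limd2 with r = 0.95, Gm19395 and Cep85l with r = 0.90, Gm3948 and 2610507B11Rik with r = 0.79, and Gm10244 and Mkrn1 with r = 0.77. Gm11213 and Tex48 were highest in Sd4 and Sd10 of WT, Gm10840 and Limd2 in Sd10 and Sc2, and Gm19395 and Cep85l in Sd4 and Sd9. Both genes of the other pairs named were highest in Sd1. The transcript of Gm11213 also shares 238 bases at 89.9% identity with Tex48. Among 21 overlapping pairs on opposite strands, 3 had the same highest cluster. Gm5617 and Rbm7 lie 143 bases apart on opposite strands, and Gm5617 was highest in Sd10 whereas Rbm7 was highest in Sd4 (r = -0.64). Gm11634 and Tmem106a were the least alike of the 36 pairs (r = -0.89).

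A smaller set held stretches near-identical to other genes. In 22 of the 99 genes the longest transcript held a stretch of at least 100 bases that was at least 95% identical to a transcript of another gene elsewhere, among them 9 of the 36 coding genes, 6 of the 53 non-coding genes and 7 of the 10 pseudogenes. The same count was not made for the other genes of at least the same abundance. Not all of the 22 are copies, since the best match covered 7.07% of the transcript in Gm5893 and 100% in Gm2000. Reads of such stretches can be assigned to the wrong gene, so the levels of these genes are uncertain. In 12 of these genes the best match was at least 95% identical and had 1 possible row. The courses of gene and match had r of at least 0.861 in 11 of the 12 pairs. The remaining pair, Gm4984 and Gm13570, had r = -0.49. Gm6477 and Npm1 had r = 0.998 over the 13 WT clusters, Gm2000 and Rpl35 r = 0.99, Gm1821 and Ubb, which encodes ubiquitin, r = 0.98, and Gm7094 and the centrin gene Cetn4 r = 0.99. Gm10376, Gm3486 and Gm21103 lie on chromosome 14 and had 10, 10 and 35 other genes that passed the same limits. Their courses were alike, with r from 0.94 to 0.98 between them, and they were highest in Sd2, Sd2 and Sd3.

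The median difference between KO and WT was small in every cluster. Ratios are log2 of KO over WT CPM, with a prior of 1 UMI per gene shared by depth, and were read where both libraries together had at least 10 UMIs. All 100 genes were read in 12 clusters and 97 in Sd10. The median ratio ranged from -0.09 in Sd1 to 0.06 in Sd6. In Sd10 it was 0.03 (quartiles -0.19 and 0.39), beside 0.04 (-0.24 and 0.38) over all 3674 genes read, and 55 of the 97 genes were above 0. In Sd9 it was 0.01 (-0.12 and 0.24), beside 0.09 (-0.12 and 0.39) over 4310 genes, and it was -0.08 once the latter median was taken off. In Sd10 the median of the other Gm symbols was -0.02, over 108 symbols, and that of the clone-named Rik symbols was 0.04, over 403 symbols.

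Few ratios passed 2-fold. Over the 13 clusters there were 1297 pairs of gene and cluster, of which 13 (1.002%) were at least 2-fold higher in KO and 12 (0.925%) at least 2-fold lower. The share was 2.12% higher and 1.97% lower over all genes read, and 1.16% higher and 0.433% lower over the 2620 other genes of at least the same abundance. Of the 25 pairs past 2-fold, 18 had under 50 UMIs in both libraries together and 3 had at least 100. In Sd10, 5 of the 97 genes were at least 2-fold higher and 3 at least 2-fold lower, where all genes gave 5.8% and 3.65% and the others of at least the same abundance 4.97% and 1.6%. In Sd9, 1 gene was higher and none lower, where all genes gave 5.27% and 1.95% and the others 3.55% and 0.0763%. In Sc1, the cluster with the fewest UMIs, 2 were higher and 5 lower, where all genes gave 2.26% and 2.68%. Of the 100 genes, 22 passed 2-fold in at least 1 cluster, in either direction, where all genes gave 31.2% and the others of at least the same abundance 15.7%.

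**Figure D4:**
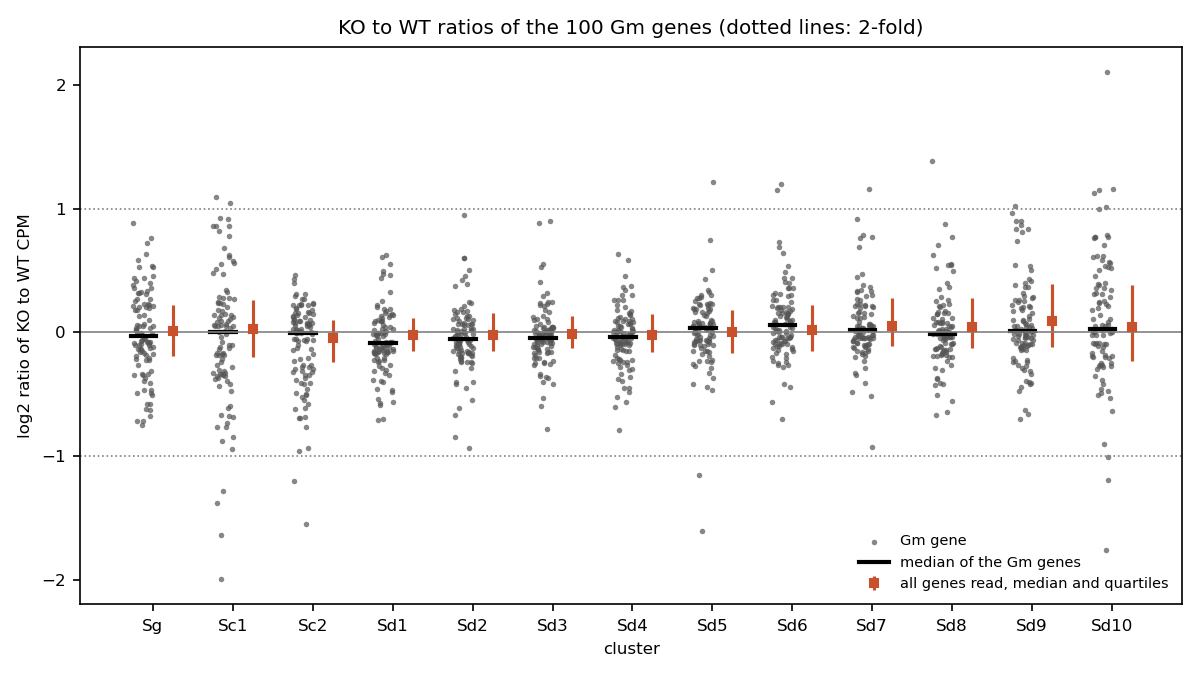
Log2 ratio of KO to WT CPM (y axis) of each of the Gm genes with at least 10 UMIs in a cluster (grey points, spread sideways at random) by cluster (x axis), with their median (black bar) and the median and quartiles of all genes read (orange). Dotted lines mark 2-fold. The medians lie between -0.09 and 0.06, and the 1 gene with 0 KO UMIs in a cluster, Gm10376 in Sc1, is not drawn there.

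The ratios of Sd10 were read for genes with at least 100 UMIs there in both libraries together. The highest was that of Gm47368, annotated as antisense, with 79 UMIs (63.1 CPM, 49.9 to 78.6) in WT and 249 UMIs (141 CPM, 124 to 160) in KO, a log2 ratio of 1.16 (0.79 to 1.55). In the other 12 clusters its ratio lay between -0.14 and 0.73, and it overlaps Immp2l on the opposite strand. Next were the lincRNA Gm39302 with 1.01 (0.44 to 1.63), Gm19395 with 0.78 (0.56 to 1.02), Gm26708 with 0.77 (0.16 to 1.42) and Gm6657 with 0.58 (-0.01 to 1.21). The lowest were Gm14773 with -0.91 (-1.37 to -0.46), from 99 UMIs in WT and 74 in KO, then Gm16226 with -0.64 (-1.12 to -0.17), Gm13872 with -0.51 (-1.02 to -0.01), Gm42418 with -0.49 (-0.54 to -0.44) and Gm34263 with -0.39 (-0.65 to -0.12). The 4 other than Gm42418 were highest in Sd8, Sd6, Sd4 and Sd7 of WT.

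Of the 97 genes read in all 13 clusters, 3 (3.09%) were above 0 and 6 (6.19%) below 0 in every cluster. Over all 3397 genes read in all clusters the shares were 4.83% and 2.03%, and over 2546 other genes of at least the same abundance 5.89% and 2.16%. The 3 higher genes were Gm5893, Gm6653 and Gm45861. Gm5893, on chromosome 7, was at 565 CPM in Sd10 of WT and 809 CPM in KO, with ratios from 0.08 in Sd1 to 0.82 in Sc1. Gm45861, protein coding on chromosome 8, was at 217 CPM in WT and 249 CPM in KO in its highest cluster Sd1, and its ratios ran from 0.20 to 0.84. Gm6653, highest in Sc2 with 471 CPM in WT and 496 CPM in KO, had ratios from 0.08 to 1.16.

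The 6 lower genes were Gm42418, Gm10638, Gm13166, Gm20878, Gm2000 and Gm1821. Gm20878, at chr4:41941572-41943124, had the lowest ratios. It was at 258, 285, 312 and 269 CPM in Sd1 to Sd4 of WT and at 158, 159, 182 and 156 CPM in the same clusters of KO, and its ratios ran from -0.10 in Sd5 to -1.76 in Sd10. The Sd10 value rests on 13 UMIs in WT and 5 in KO, whereas that in Sd3, -0.78, rests on 1537 and 1395 UMIs. The interval of the Sd3 ratio was -0.89 to -0.67. The transcript of Gm20878 shares 458 bases at 98.7% identity with Ccl27a, which encodes a chemokine, and Ccl27a itself had a median ratio over the clusters of -0.07, with 8 of 13 clusters below 0. Gm1821 had a median ratio of -0.53 and its near-identical gene Ubb -0.11. Gm2000 had a median ratio of -0.36 and Rpl35 -0.28, and both were below 0 in all 13 clusters. Gm13166, with a near-identical copy Gm13236, had a median of -0.21, and Gm10638 one of -0.24, with -0.00 in Sd10. Near-identical stretches were thus present in 4 of the 6 lower genes, and in 5 of the 9 genes on a constant side, compared with 17 of the other 90 annotated genes. These 9 genes were singled out by their ratios, so this is a description.

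Gm42418 is the second most abundant of the 100 and was lower in KO in every cluster. It lies at chr17:39846958-39848788 and overlaps the ribosomal RNA gene CT010467.1 on the opposite strand. In WT it was highest in Sd10 with 5739 CPM (5607 to 5873), next in Sc1 with 5065 CPM and lowest in Sd4 with 1885 CPM. In KO it was at 4086 CPM (3992 to 4181) in Sd10, 4362 CPM in Sc1 and 1311 CPM in Sd4. Its ratios ran from -0.18 in Sg to -0.59 in Sd3, with a median of -0.47. The summed share of the 100 genes was lower in KO than in WT in all 13 clusters, and without Gm42418 it was lower in 11 and higher in 2. In Sd10 that share without Gm42418 was 3.57% in WT and 3.56% in KO. Without the assumption on rare rows, the 100 genes then chosen had a Sd10 share of 2.087% in WT and 2.097% in KO, so that the direction turned. The median share of mitochondrial UMIs per cell was 0.352% in WT and 0.449% in KO, and its part in the lower Gm42418 level was not tested.

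**Figure D5:**
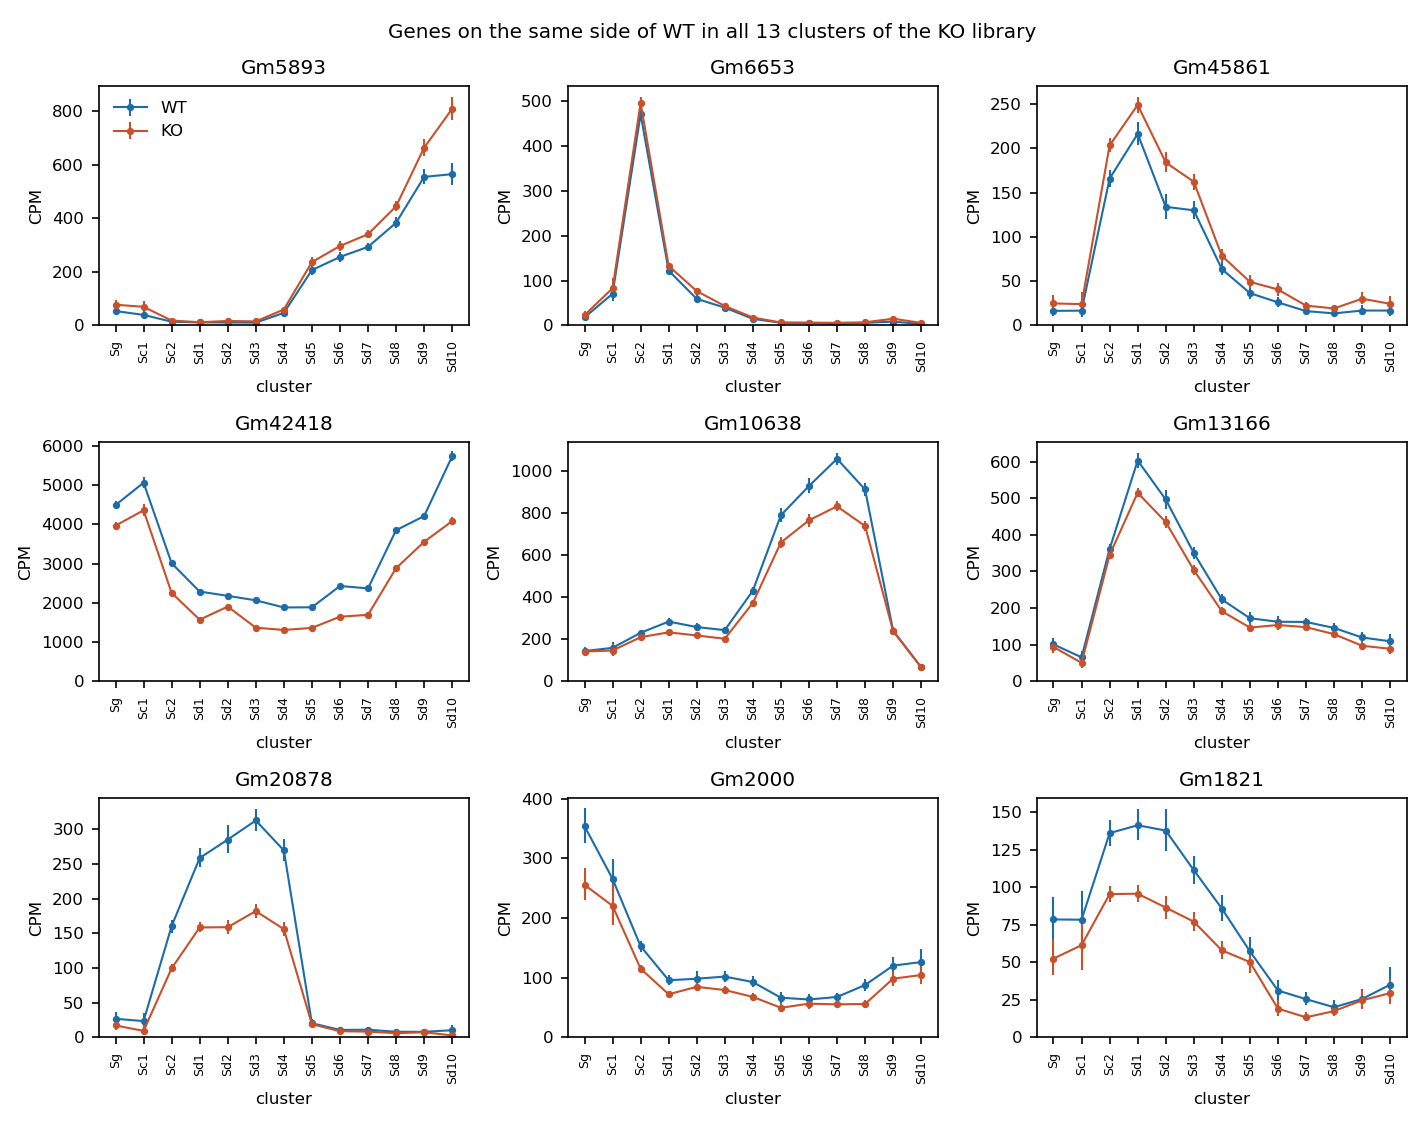
Level (CPM, y axis from 0) in the 13 clusters (x axis) of the 9 Gm genes whose KO level lay on the same side of the WT level in every cluster, for WT (blue) and KO (orange), with exact Poisson 95% intervals. The 3 genes in the top row were higher in KO and the other 6 lower, by a median log2 ratio of -0.69 for Gm20878 and -0.47 for Gm42418.

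No Gm gene was at least 2-fold apart in more than 2 of the 13 clusters, 3 were in 2 and 19 in 1. Of these, the 3 and the most abundant of the 19 are described. Gm20878 and Gm10376 were lower in 2 clusters each, Gm32916 was higher in 2, Gm128 was higher in 1 and Gm4871 lower in 1. Gm128 had 16 UMIs in WT and 53 in KO in Sd8, a log2 ratio of 1.38 (0.58 to 2.31), far from its highest cluster Sd4, where it was at 478 CPM in WT and 407 CPM in KO. Gm10376 had 61 UMIs in Sc2 of WT and 47 in Sc2 of KO, a log2 ratio of -1.20. It had 11 UMIs in Sc1 of WT and 0 in Sc1 of KO. Against a floor of 3 counts in that library and cluster, the WT level of 10.8 CPM (5.38 to 19.3) was 2.69-fold higher. The KO interval reached 4.93 CPM, so this fold is not a lower limit. In Sd2, its highest cluster, Gm10376 was at 388 CPM in WT and 372 CPM in KO. Gm32916, a lincRNA, was at 151 CPM in WT and 162 CPM in KO in its highest cluster Sd1, and its ratios past 2-fold, 1.22 in Sd5 and 1.20 in Sd6, rest on 42 and 45 UMIs. For all of these genes, values past 2-fold lay in clusters where the gene was scarce. For Gm20878 these were Sc1, with 24 UMIs in WT and 7 in KO, and Sd10, with 13 and 5. In Sd1 to Sd4, where Gm20878 was abundant, its ratio ran from -0.71 to -0.84 and did not pass 2-fold.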

How the data were processed

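Single testis cells were sequenced as 1 library per genotype. Per the labels and the study's methods, the authors aligned reads with STAR 2.5.3a, counted them on genes with featureCounts 1.6.2 and filtered cells in Seurat 3.2.3, with versions as in the submitters' processing notes. They deposited raw UMI counts without normalization, and a cell table with the percent of mitochondrial UMIs per cell and the cluster of each of 12408 cells. No cell was removed here and no doublet caller was run.

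The deposited symbol list has 25065 lines for 26758 matrix rows. The 30 mitochondrial symbols were matched to rows whose UMIs give each cell's deposited mitochondrial percent, which held exactly in 12408 cells. It was assumed that a row without a symbol was seen in under 5 cells. Each of the 31 stretches between matched rows held enough such rows for this to be possible (0 contradictions). That does not show that the rows without a symbol are the rare ones. Symbols with 1 possible row were kept. These hold 86.9% of UMIs. This rule rests on the data and is not stated in the sources used here.

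The members, lists and rules were chosen with earlier results of these data known. UMIs were summed per library and cluster with Python 3.11.15, NumPy 2.4.6, SciPy 1.17.1 and pandas 2.3.3. Sums have exact Poisson intervals, shares and ratios exact binomial intervals. Alternatives changed the scaling, minimum, prior, depth, cells and symbol matching. Scripts were tested on simulated data, in which the assumption on rare rows was built in and so was not itself tested. Genome annotation is GENCODE vM21 of GRCm38, the build of mm10, a later release than the one the authors counted on. Named genes are the 10 with most UMIs, and for each cluster the 1 with the highest WT CPM among the genes highest there. They include the 5 highest and 5 lowest ratios of Sd10 with at least 100 UMIs in both libraries together. They also include the 5 that were at least 2-fold apart in the largest number of clusters (at most 2, with ties broken by UMIs). Added are the 3 members before and 3 symbols after the limit of the ranking, coding members, and the 5 with the most alike neighbour. Others, such as Gm20268, Gm10138 and the genes on 1 side in every cluster, were chosen after their values were seen.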

Additional observations from a re-analysis of the deposited data

How the results depend on the processing

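With 1 library per genotype there was no replicate to leave out, and the UMIs of a cluster limit the precision. No paired analysis was possible because each genotype has 1 library. Of 115 values recomputed under alternatives, 88 stayed within 1.5 times (counts) or within the counting interval (shares and medians) and 27 moved. Among these, the direction between KO and WT turned for the Sd9 median when centred and for the Sd10 share without the assumption on rare rows. The cause was not tested except where the alternative's construction shows it.

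The choice of genes rests most on the symbol matching. Without the assumption on rare rows 200 Gm symbols had 1 possible row, and the 100 with most UMIs among them shared 64 with those described. Their Sd10 share was 2.087% in WT and 2.097% in KO, with 4 genes at least 2-fold higher and 1 lower in Sd9.

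The Sd10 share of 4.143% in WT and 3.969% in KO became 5.79% and 5.517% with totals that left out the 20 most abundant rows, 4.228% and 3.998% as a mean of single-cell CPM, and 4.203% and 4.008% with cells thinned to 3000 UMIs. Without the 5% of cells with most UMIs it was 4.204% in WT. The Sd9 median ratio of 0.01 was -0.08056 when centred on all genes. The Sd9 count of 1 gene at least 2-fold higher was 0 when centred, 0 with a prior of 10 UMIs, 2 with single-cell CPM, 4 with thinned cells and 4 without the 5% of cells. The Sd9 count of 0 lower was 1 with thinned cells. The Sd10 count of 5 higher was 2 with a minimum of 50 UMIs, 2 with a prior of 10 and 3 without the 5% of cells, and that of 3 lower was 1 with the minimum of 50 and 1 with thinned cells. Alternatives for the genes on 1 side in every cluster were chosen after seeing the data. The 3 higher became 1 with the minimum of 50, and the 6 lower became 3 with single-cell CPM and 3 with thinned cells.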
